A study of Bos taurus with 6 samples.

Results

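The mRNAs described here encode the proteins of the small subunit of the cytosolic ribosome, together with the extra gene copies that carry the same symbols. Members were the rows of the deposited gene table whose symbol is RPS followed by a digit (without the RPS6K kinases and RPS27A), RPSA or FAU. The rule took 100 of 20707 rows. RPS19BP1, among them, encodes no ribosomal protein and is given apart. The other 99 rows carry 31 symbols, 20 of them on several rows and 11 on a single row. For each symbol, the row with the most coding exons in the deposited annotation stands for the gene, and the other rows are called copies.

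The study was on bovine (Bos taurus) oocytes. The MII group was cultured for 24 h to mature in vitro, to the metaphase arrest of the second division. They were set against GV oocytes, which still held the germinal vesicle, the intact nucleus of the meiotic arrest, and were taken when the follicles were aspirated. Both came from ovaries collected at a slaughterhouse, and each library was made from an individual oocyte with the Clontech SMARTer Ultralow kit and read as single Illumina reads. There were 3 libraries per stage. No strain, age or treatment beyond maturation is given, and separate animals are not stated, so the p-values speak of variation among these libraries, which may be technical.

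The small, or 40S, ribosomal subunit binds mRNA and reads its codons, and its proteins sit on ribosomal RNA in a head, which rotates during translocation, and a body with its platform. Each protein is present in a single copy per ribosome. In mammals the mRNAs of ribosomal proteins begin with a run of pyrimidines, through which their translation follows nutrient signalling, and their genes have left many intronless copies in the genome by reverse transcription. A growing oocyte stores ribosomes and maternal mRNA. During maturation stored mRNAs are translated, silenced or degraded, and their poly(A) tails lengthen or shorten.

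The values are RPKM, read numbers divided by library size and by model length, so they can be compared between genes. They are relative to the total of a library, and fewer transcripts in the oocyte and poorer capture of their tails cannot be told apart. The libraries held 31.11, 21.26 and 32.56 M reads for MII (columns MII14c, MII15 and MII15c) and 29.90, 26.91 and 20.22 M for GV (GV14, GV14c and GV15), as recovered from the low values. Values per library are given in these orders throughout. Columns GV14c and MII15c match no sample title and carry only their stage. All 8 oocyte markers checked had reads in every library, but in limma (adjusted p under 0.05) 6 of them were lower in MII and none was higher. Their median log2 change was -1.97, with FIGLA at -4.38 and GDF9 at -1.80. Of 16 cumulus and granulosa markers, the summed level was 113.967 to 122.902 RPKM in MII and 99.973 to 179.866 RPKM in GV. STAR and HAS2 made up most of it, while the defining receptors LHCGR and FSHR, with PTX3 and AMH, were at or near 0. Of the 5 cumulus markers tested, STAR was lower in MII, at 35.4 ± 5.46 RPKM in MII and 101 ± 34.2 RPKM in GV. HAS2 was higher, at 59.5 ± 4.84 RPKM in MII and 16.3 ± 4.06 RPKM in GV, and so was VCAN, at 7.99 ± 1.31 RPKM in MII and 3.31 ± 0.839 RPKM in GV (SD, n = 3 each). The part of these markers in the results was not tested.

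Of the 99 ribosomal protein rows, 46 averaged at least 1 RPKM across the libraries and were tested. A further 53 lay below, 16 of them at 0 in every library. Tested genes had an adjusted p from limma, a linear model fitted on log2(RPKM + 1) for all 8671 genes at that level, with a threshold of 0.05. Changes are MII minus GV on this scale, which understates the change of low rows. Among the 46 rows, 25 were lower in MII, 1 was higher and 20 did not pass. Over all tested genes 40.3% were called, with 26.9% lower and 13.4% higher. The median change was -1.10 for the 46 rows and -0.16 for all tested genes. In 25 rows every MII library lay below every GV library, and in 2 every MII library lay above. Over all tested genes these shares were 32.1% and 19.8%. Without the columns that match no title, 16 rows were lower and none was higher, when 14.8% of all tested genes were lower and 4.06% higher.

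Of the 31 rows that stand for a symbol, 28 were tested. In MII 13 were lower, RPS3 was higher and 14 did not pass, with a median change of -0.96. Without the 2 untitled columns 6 were lower, when 14.8% of all tested genes were lower. Leaving out 1 library at a time gave 10 to 15, when 1719 to 2201 of 8671 tested genes were lower. Between the stages the order of levels changed at the top. By their mean, RPSA, RPS3, RPS13, RPS20 and RPS7 were the most abundant in MII, and FAU, RPSA, RPS13, RPS4X and RPS3 in GV. FAU was 24th of 28 in MII and 1st in GV, and RPS4X 22nd and 4th. RPSA and RPS3 together made up 32.2%, 40.2% and 36.3% of the summed RPKM of standing rows in the MII libraries, against 13.2%, 17.3% and 15.9% in the GV libraries. FAU and RPS4X together made up 1.73% to 2.67% in MII libraries, against 16.0% to 27.0% in GV libraries. The summed RPKM of all rows was 4795, 2985 and 4232 in MII libraries and 6116, 10500.5 and 6647 in GV libraries, or 1.36%, 0.795% and 1.15% of the table against 1.60%, 2.50% and 1.64%. Over the 26 tested standing rows with several coding exons, Spearman's rho was 0.577 between the mean levels in MII and GV, 0.0985 between coding length and change, and -0.00855 between the GV level and change. These are descriptions over genes of the same 6 libraries.

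**Figure D1:**
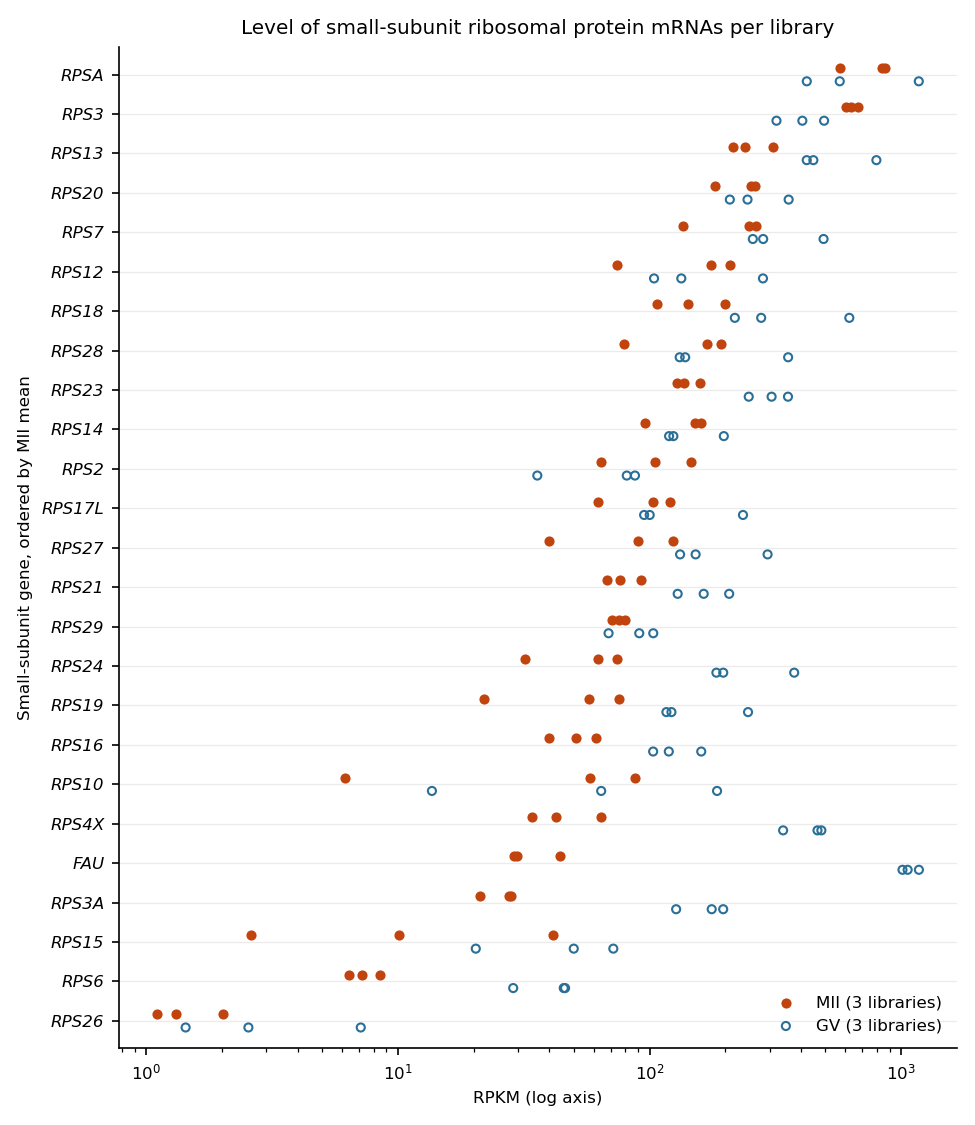
RPKM of 25 of the tested standing rows on a log axis, 1 point per library, MII filled and above, GV open and below, ordered by the MII mean. FAU, at 29.0 to 44.1 RPKM in MII against 1013 to 1177 in GV, stands farthest apart between the stages, while the points of RPSA, RPS20 and RPS14 overlap and RPS3 is the row with all MII points to the right of the GV points.

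Among standing rows, body proteins held the largest falls. A row named after the head protein RPS25, described below, carries no symbol, enters no count here and changed by -2.43. Of 16 tested standing rows of the body and platform, 10 were lower in MII, or 62.5% against 26.9% of all tested genes. None was higher and 6 did not pass, with a median change of -1.08. Without the 2 untitled columns 5 of the 16 were lower, when 14.8% of all tested genes were lower.

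FAU encodes a ubiquitin-like protein fused to a ribosomal protein of the body, from which it is cleaved. The gene lies on chromosome 29 from 43989947 to 43991956 (minus strand, 6 coding exons; coordinates are those of the deposited annotation, whose build is not given in the sources used here). Its level was 29.7, 44.1 and 29.0 RPKM in MII libraries and 1177, 1062 and 1013 RPKM in GV libraries. The stages did not overlap, and each was narrow beside the gap between them. The change was -4.97 ± 0.22 (SE; limma adjusted p = 4.87e-06).

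RPS4X, whose gene is X-linked in mammals, has 7 coding exons between 83531935 and 83536973 of chromosome X. It was at 64.1, 34.0 and 42.6 RPKM in MII libraries and 340, 482 and 465 RPKM in GV libraries. Its change was -3.20 ± 0.27 (SE; limma adjusted p = 5.49e-05), and the groups were far from overlap. RPS3A, which lies near the exit of the mRNA channel, was at 28.0, 21.1 and 27.5 RPKM in MII and 128, 196 and 177 RPKM in GV (change -2.65 ± 0.24, SE).

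RPS6, the substrate of the S6 kinases, averaged 7.35 ± 1.04 RPKM in MII and 40.2 ± 9.92 RPKM in GV (SD, n = 3 each), a change of -2.28 ± 0.27 (SE). Its standing row, on chromosome 8 from 24927468 to 24933402, holds 4 coding exons and 615 coding bases, against 750 in its copy on chromosome 1. RPS24, one of the proteins whose loss causes Diamond-Blackfan anaemia in humans, averaged 56.3 ± 21.8 RPKM in MII and 252 ± 107 RPKM in GV (SD, n = 3 each), a change of -2.15 ± 0.37 (SE). These 5 were the largest falls among standing rows, and each kept its call under all 18 alternatives tried.

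The other falls of the body were close to each other in size. RPS23, a protein of the decoding centre, changed by -1.09 ± 0.21, RPS13, which bridges to the large subunit, by -1.08 ± 0.28 and RPS21 by -1.06 ± 0.24 (SE). All MII libraries lay below all GV libraries in each. RPS13 kept a high level in both stages, 255 ± 47.9 RPKM in MII and 556 ± 210 RPKM in GV (SD, n = 3 each). Its call was lost without MII15c (limma adjusted p = 0.058), and all of these 3 calls were lost without both untitled columns. RPS27, a zinc finger protein, averaged 84.3 ± 42.2 RPKM in MII and 193 ± 88.5 RPKM in GV (SD, n = 3 each). It changed by -1.24 ± 0.43 (SE; limma adjusted p = 0.0467) and lost its call under 12 of 18 alternatives, with every library left out but MII14c.

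The other 6 tested body rows did not pass. RPSA, also known as the laminin receptor precursor, was the most abundant member of MII at 837, 571 and 864 RPKM, against 422, 1176 and 570 RPKM in GV. The groups overlapped, with GV14c above all MII libraries (change 0.18 ± 0.36, SE). RPS7, a protein of the body, was at 266, 136 and 248 RPKM in MII and 257, 492 and 283 RPKM in GV (-0.66 ± 0.33, SE). Here MII15 lay lowest and GV14c highest.

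RPS14, a platform protein, was at 160, 96.3 and 151 RPKM in MII and 124, 197 and 120 RPKM in GV (-0.11 ± 0.28, SE). It overlapped between the stages, with MII15 again the lowest of the 6 libraries. RPS2, which lines the mRNA entry, averaged 105 ± 41.0 RPKM in MII and 68.2 ± 28.2 RPKM in GV (SD, n = 3 each; 0.64 ± 0.40, SE). The standing row of RPS26 has 1 coding exon and averaged 1.48 ± 0.477 RPKM in MII and 3.70 ± 3.01 RPKM in GV (SD, n = 3 each). A more abundant row that the annotation names RPS26 carries no symbol and has 3 coding exons. It was lower in MII (-2.26 ± 0.37, SE) and is described below.

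Among the head proteins 3 falls and the sole rise were called. Of 12 tested standing rows of the head, 3 were lower in MII, 1 was higher and 8 did not pass, with a median change of -0.63. The shares, 25.0% lower and 8.33% higher, were near or below the 26.9% and 13.4% of all tested genes. The difference between head and body was not tested. With a further term in the model, described below, 9 of the 12 head rows and 12 of the 16 body rows were lower. Of all tested genes 34.3% were lower with that term. Without the 2 untitled columns 1 head row was lower, when 14.8% of all tested genes were lower. Without GV14c alone likewise 1 head row was lower, when 1939 of 8671 tested genes were lower.

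RPS3, which lines the mRNA entry and also has a role in DNA repair, was the member that was higher in MII. Its sole row, with 6 coding exons, spans 55370367 to 55375306 of chromosome 15. Its level was 672, 607 and 633 RPKM in MII libraries and 320, 494 and 405 RPKM in GV libraries. The lowest MII library lay above the highest GV library, and the MII libraries were closer together than the GV libraries. The change was 0.67 ± 0.21 (SE; limma adjusted p = 0.0337). The call was lost under 7 of 18 alternatives, including without GV14, GV15, MII14c or MII15c (limma adjusted p = 0.123, 0.0824, 0.0843 and 0.101).

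RPS16, whose tail reaches the transfer RNA in the ribosome's P site, averaged 50.7 ± 10.8 RPKM in MII and 128 ± 29.5 RPKM in GV (SD, n = 3 each; change -1.31 ± 0.25, SE) and kept its call under every alternative. RPS19, the protein most often mutated in Diamond-Blackfan anaemia in humans, averaged 51.6 ± 27.2 RPKM in MII and 162 ± 73.3 RPKM in GV (SD, n = 3 each; -1.71 ± 0.45, SE). RPS18, a head protein that bridges to the large subunit, averaged 150 ± 46.6 RPKM in MII and 373 ± 218 RPKM in GV (SD, n = 3 each; -1.20 ± 0.39, SE). All 3 were without overlap. RPS19 lost its call without GV14c (limma adjusted p = 0.0504), and RPS18 without GV14c, MII15 or MII15c (limma adjusted p = 0.0752, 0.0941 and 0.0957).

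The abundant head proteins that did not pass overlapped between the stages. RPS20, a head protein beside RPS3, was at 254, 181 and 263 RPKM in MII and 209, 357 and 245 RPKM in GV (-0.20 ± 0.26, SE). RPS12, which binds at the beak of the head, was at 209, 73.9 and 176 RPKM in MII and 104, 282 and 134 RPKM in GV (-0.18 ± 0.45, SE). RPS28, near the mRNA exit, was at 192, 78.8 and 170 RPKM in MII and 139, 356 and 132 RPKM in GV (-0.44 ± 0.44, SE). In each the highest GV library was GV14c and the lowest MII library was MII15.

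RPS17L, the symbol on the row of ribosomal protein S17, was at 120, 62.6 and 103 RPKM in MII and 100, 235 and 95.2 RPKM in GV (-0.51 ± 0.38, SE), with the same 2 libraries at the ends. RPS29, a small zinc finger protein of the head, averaged 75.5 ± 4.31 RPKM in MII and 87.7 ± 17.6 RPKM in GV (SD, n = 3 each; -0.20 ± 0.22, SE). Its sole row has 1 coding exon.

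**Figure D2:**
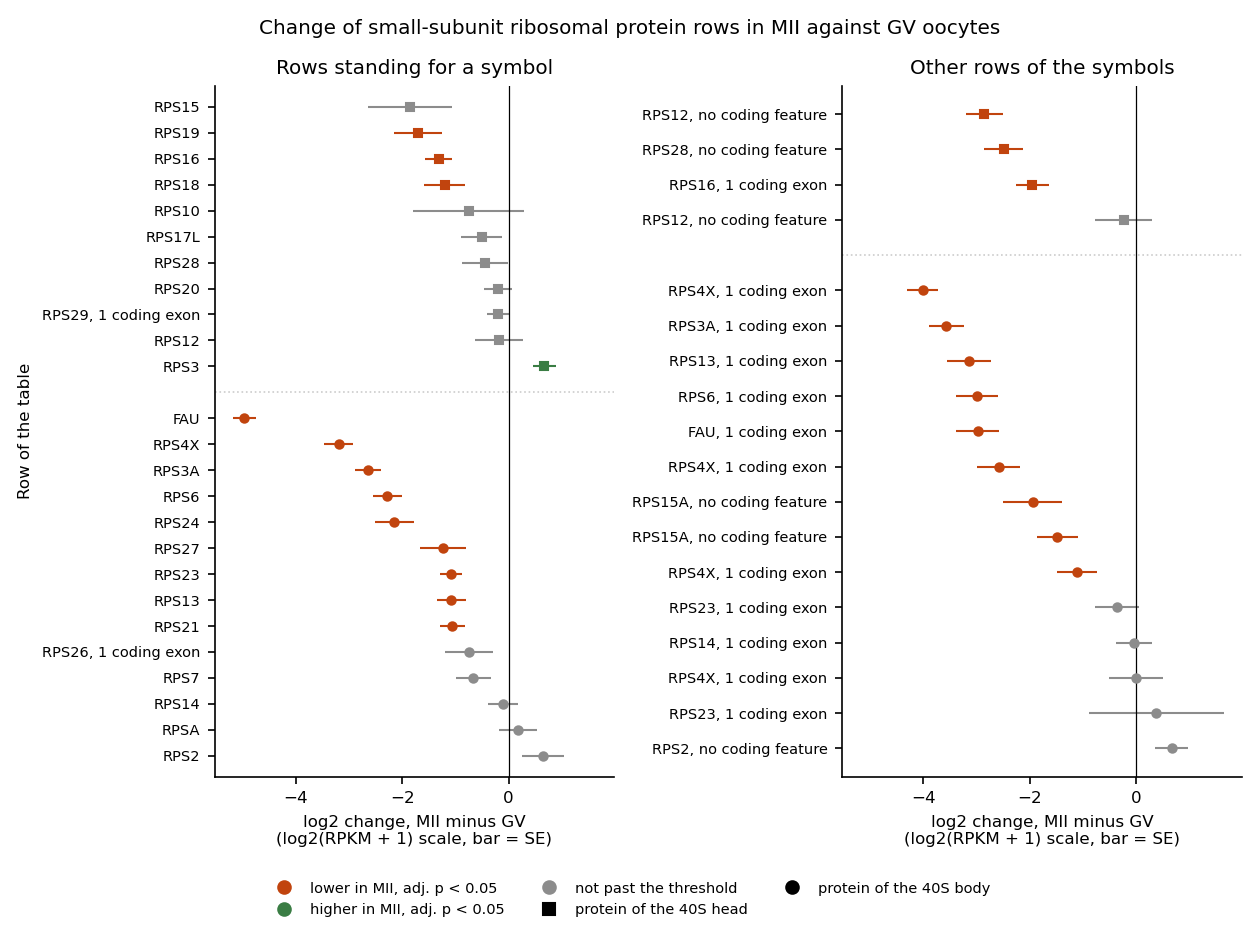
Log2 change, MII minus GV, with its SE for 43 of the tested rows. Left are 25 standing rows and right the 18 copies, head proteins as squares above the dotted line and body proteins as circles below it, with rows lower in MII in red, the row higher in MII in green and rows past neither way in grey. FAU at -4.97 lies farthest left, RPS3 at 0.67 is the green point, and the widest bars belong to RPS10 and the chromosome 11 copy of RPS23.

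The level of many members followed the letter c in the column names, whose meaning is not stated. Columns MII14c, MII15c and GV14c carry it, and MII15, GV14 and GV15 do not. MII15c and GV14c are also the columns that match no title, so the letter and the lack of a title differ only in MII14c. Among the sample titles the letter is on GV15c and MII14c. GV14c is the sole GV column with it. Effects of the letter and of the lack of a title were not separated. RPS10, which is ubiquitinated on collided ribosomes, was at 87.5, 6.15 and 58.0 RPKM in MII and 64.2, 186 and 13.6 RPKM in GV. RPS15, which reaches towards the decoding site, was at 41.4, 2.61 and 10.1 RPKM in MII and 50.0, 71.8 and 20.4 RPKM in GV. In both the lowest MII library was MII15 and the highest GV library GV14c.

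With the letter as a term beside stage in limma, 18 of the 46 rows were higher in columns with the letter and none was lower (adjusted p under 0.05). Over all 8671 tested genes 497, or 5.73%, were higher and 135 lower. The difference between columns with and without the letter was 2.97 for RPS10 (limma adjusted p = 0.00459), 1.29 for RPS28 (0.00459), 1.31 for RPS12 (0.00459) and -0.31 for FAU (0.363), on the log2 scale. With that term 33 rows were lower in MII and 1 was higher, when 34.3% of all tested genes were lower and 16.9% higher. Of standing rows 21 were lower, 9 of 12 tested in the head and 12 of 16 in the body. RPS7, RPS10, RPS12, RPS15, RPS17L and RPS28 were among the standing rows that joined those called lower, with changes of -1.74 for RPS10, -2.47 for RPS15 and -0.61 for RPS12. Within columns with the letter, with 1 of them GV, 43 of 46 rows were lower in MII, with a median change of -1.49, as were 56.2% of all tested genes, with a median of -0.19. Within columns without it, with 1 of them MII, 40 of 46 were lower, with a median of -1.33, as were 61.1% of all tested genes, with a median of -0.36. For RPSA the MII minus GV difference was -0.47 within columns with the letter and 0.22 within the others.

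**Figure D3:**
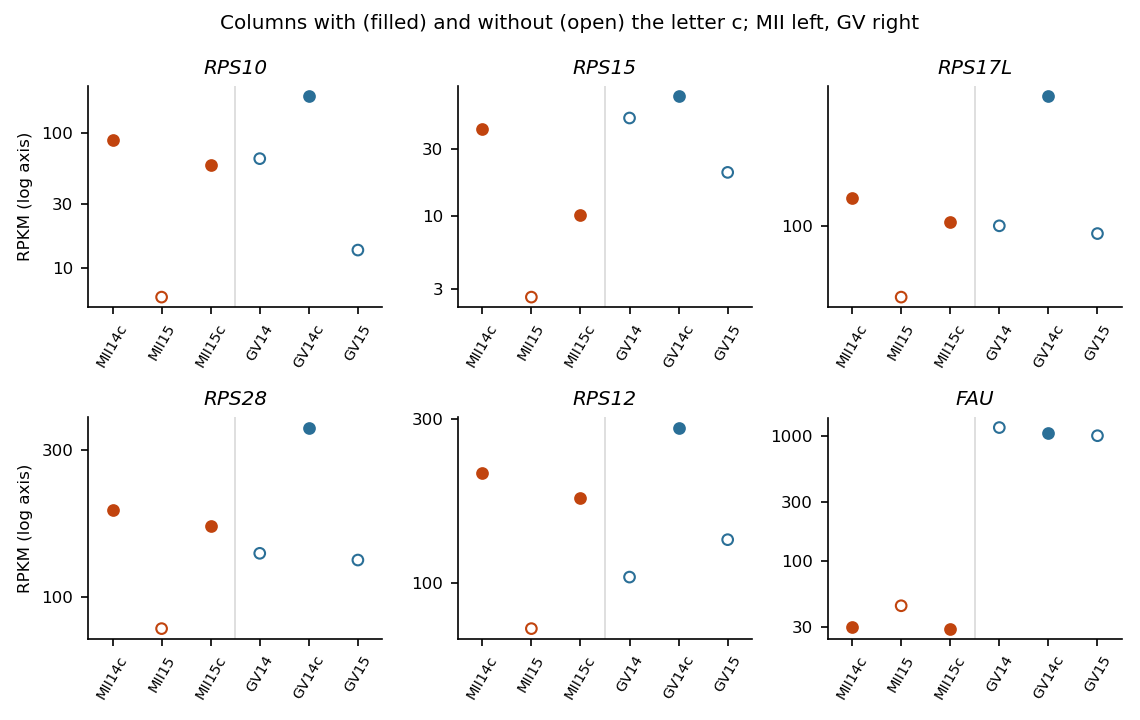
RPKM on a log axis in each library for RPS10, RPS15, RPS17L, RPS28, RPS12 and FAU, MII libraries left and GV libraries right of the line, with columns whose name has the letter c filled. Filled points lie above open points of the same stage for all but FAU, whose MII and GV points separate by stage instead.

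Several members were low, or had no row with several exons at a tested level, under their own symbols. RPS25, a head protein that some viral RNAs need to start translation, has 5 rows under its symbol, all below a mean of 1 RPKM. RPS9, a primary binder of ribosomal RNA, has 1 row at a mean of 0.874 RPKM in MII and 0.825 RPKM in GV. The 7 rows under RPS15A and the 2 under RPS26 have no several-exon row with a mean of at least 1 RPKM. The sole row of RPS29, though abundant, likewise has 1 coding exon. In the table, 4 rows have no symbol but are named after small-subunit proteins in the annotation. In MII 3 of these 4 rows were lower, against 26.9% of all tested genes. They were found after the values were seen and enter none of the counts above.

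The row named after RPS25, ENSBTAG00000027772, has 4 coding exons between 30115928 and 30117798 of chromosome 15. It was at 117, 46.1 and 91.5 RPKM in MII libraries and 332, 588 and 405 RPKM in GV libraries. Every MII library was below every GV library (change -2.43 ± 0.35, SE; limma adjusted p = 0.000924). The row named RPS26, ENSBTAG00000038896, with 3 coding exons on chromosome 5 from 57603811 to 57606777, was at 29.9, 13.8 and 24.3 RPKM in MII and 77.3, 172 and 92.0 RPKM in GV (-2.26 ± 0.37, SE; limma adjusted p = 0.00155). The row named after RPS15A, ENSBTAG00000020733, was low and overlapped, at 3.99, 0 and 0.467 RPKM in MII and 3.71, 10.4 and 5.42 RPKM in GV (-1.85 ± 0.59, SE; limma adjusted p = 0.034). Its call was lost under 7 of 17 alternatives, including without GV14c, GV15, MII15 or MII15c (limma adjusted p = 0.105, 0.0613, 0.0899 and 0.116). The row named after RPS27L, a close relative of RPS27 that p53 induces in human cells, averaged 75.8 ± 30.7 RPKM in MII and 82.8 ± 7.43 RPKM in GV (SD, n = 3 each; -0.20 ± 0.28, SE) and did not pass.

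Copies made up a smaller part of the signal in MII. Rows that do not stand for a symbol held 2.16%, 1.90% and 2.51% of the summed RPKM of all small-subunit rows in MII libraries, against 8.11%, 7.87% and 7.69% in GV libraries. All 3 MII libraries lay below all 3 GV libraries, for which the exact two-sided permutation p is 0.1, the smallest that 3 against 3 allows. A pair of copies, of RPS4X on chromosome 23 and of RPS28, held much of this. Without both, a choice made after seeing the data, the share was 1.15%, 0.940% and 1.42% in MII libraries and 2.14%, 2.95% and 2.61% in GV libraries. The 99 rows fell into 34 with several coding exons, 29 with a single coding exon and 36 with no coding feature in the annotation. Of these, 26, 14 and 6 were tested, and 13, 8 and 4 were lower in MII. These were 50%, 57.1% and 66.7% of the rows tested, against 26.9% of all tested genes. The filter was on the mean over both stages, so a row could be tested through its GV values alone. Several rows counted as lower averaged under 1 RPKM in MII. Among them were copies of RPS3A (0.096 RPKM in MII, 12.4 in GV), FAU (0.720 and 11.8) and RPS12 (0.402 and 8.80). The shares were therefore not read as a trait of copies. RPS4X held the most rows, 16, followed by RPS6 with 9 and by RPS12, RPS15A and RPS3A with 7 each. Reads of near-identical copies can be split between rows by the counting, whose handling of such reads is not given in the sources used here, so the level of a copy is uncertain.

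To compare copies, the change of each row with 1 coding exon was set against that of the row with several coding exons of the same symbol, in a limma fit over all 95 such pairs of the table. Small-subunit symbols gave 12 of these pairs. In 1 the copy fell more. In 3 the several-exon row fell more on the scale with 1 RPKM added, a direction set by that scale, as described below. Over all 95 pairs 4.21% and 6.32% passed in those directions.

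RPS13 was the symbol whose copy fell more. The copy ENSBTAG00000003937, on chromosome 13 from 22813811 to 22814352, was at 4.21, 1.56 and 6.01 RPKM in MII libraries and 29.8, 59.6 and 33.4 RPKM in GV libraries. This was 1.37%, 0.724% and 2.50% of the RPS13 row on chromosome 15 in MII, against 6.66%, 7.47% and 7.92% in GV. The changes differed by 2.07 ± 0.35 (SE, several-exon row minus copy; limma adjusted p = 0.0107), and the call was lost without MII14c (0.0509).

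The 3 pairs in the other direction depended on the pseudocount. With 1 RPKM added, these copies were too low in GV to fall as far as their several-exon rows did, even at 0 in MII. These 3 calls therefore do not show which row fell more. The FAU copy on chromosome 5 from 47736700 to 47737214 was at 0.187, 1.74 and 0.239 RPKM in MII and 10.1, 9.96 and 15.3 RPKM in GV. As a share of the FAU row this was 0.630%, 3.93% and 0.825% in MII and 0.855%, 0.938% and 1.51% in GV, and the shares overlapped. The changes differed by -1.99 ± 0.30 (SE; limma adjusted p = 0.0102) with 1 RPKM added and by -0.64 with 0.1 RPKM added (0.628).

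For RPS4X the copies were ENSBTAG00000031205 on chromosome 7 and ENSBTAG00000040167 on chromosome 10. ENSBTAG00000031205 was at 0.606, 0.089 and 2.92 RPKM in MII and 0.231, 1.61 and 1.15 RPKM in GV. It averaged 1.20 ± 1.51 RPKM in MII and 0.998 ± 0.704 RPKM in GV (SD, n = 3 each). ENSBTAG00000040167 was at 1.39, 0.089 and 0.043 RPKM in MII and 2.03, 2.21 and 1.80 RPKM in GV. Their differences from the RPS4X row were -3.19 ± 0.51 and -2.09 ± 0.26 (SE; limma adjusted p = 0.0102 and 0.00552), and with 0.1 RPKM added these adjusted p-values were 0.122 and 0.647.

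The chromosome 23 copy of RPS4X, ENSBTAG00000025617, had the highest mean of all copies in GV, while in MII a copy of RPS28 was higher. It was at 19.9, 8.74 and 17.4 RPKM in MII libraries and 259, 250 and 240 RPKM in GV libraries. The change was -4.01 ± 0.29 (SE; limma adjusted p = 3.03e-05), with no overlap. It has 1 coding exon of 792 bases, and its model spans 10528335 to 10544222. In the annotation it lies between SRSF3 and CDKN1A, and in the RefSeq table of assembly ARS-UCD2.0 the protein-coding gene between these neighbours is named RPS4Y1. Its share of the X-linked row was 31.0%, 25.7% and 40.9% in MII and 76.4%, 52.0% and 51.5% in GV. These did not overlap, but the difference of changes, 0.82 ± 0.28 (SE), did not pass (limma adjusted p = 0.12).

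Further pairs did not pass. The RPS3A copy on chromosome X, ENSBTAG00000006383, was at 0.037, 0.109 and 0.142 RPKM in MII and 9.72, 17.5 and 10.1 RPKM in GV, a change of -3.57 ± 0.33 (SE; limma adjusted p = 8.33e-05). It was 0.132% to 0.516% of the RPS3A row in MII and 5.74% to 8.91% in GV. The difference of changes was 0.92 ± 0.25 (SE; limma adjusted p = 0.0584) and 3.30 with 0.1 RPKM added (0.0128). It turned to -0.73 with 5 RPKM added (0.0375), an amount far above the copy's MII values, and turned under 1 of 18 alternatives in all. The alternatives under which it newly passed were 5, this one not counted. Its size, and with 5 RPKM its direction, depended on the pseudocount. The RPS6 copy on chromosome 1 averaged 2.36 ± 0.971 RPKM in MII and 26.9 ± 12.8 RPKM in GV (SD, n = 3 each), 20.3% to 38.0% of the RPS6 row in MII and 51.9% to 89.8% in GV. The RPS14 copy on chromosome 17 kept a nearly constant share, 4.69%, 4.46% and 4.16% in MII and 3.92%, 4.36% and 4.45% in GV, with a difference of changes of -0.07 ± 0.18 (SE; limma adjusted p = 0.825).

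The remaining copies with 1 coding exon were low. The RPS16 copy on chromosome 3 averaged 0.848 ± 0.287 RPKM in MII and 6.21 ± 1.46 RPKM in GV (SD, n = 3 each), and the RPS4X copy on chromosome 9 1.03 ± 0.663 RPKM in MII and 11.4 ± 5.12 RPKM in GV (SD, n = 3 each). Both were lower in MII. Of RPS23, the copy on chromosome X averaged 14.4 ± 3.61 RPKM in MII and 20.6 ± 11.5 RPKM in GV (SD, n = 3 each). The RPS23 copy on chromosome 11 followed the letter c, at 12.0, 0.548 and 12.4 RPKM in MII and 0.584, 42.9 and 0.768 RPKM in GV.

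When rows without a coding feature were also taken as copies, a choice made after seeing the data, the table gave 185 pairs, of which 8.11% passed with the copy falling more and 9.19% the other way. RPS28 and RPS12 then joined RPS13. The RPS28 copy ENSBTAG00000006046 lies on chromosome 27 from 15623109 to 15623369 and was at 29.4, 20.3 and 29.4 RPKM in MII and 114, 282 and 107 RPKM in GV (change -2.49 ± 0.37, SE). It was 15.3%, 25.8% and 17.3% of the RPS28 row in MII, against 82.1%, 79.4% and 81.3% in GV. The share was nearly the same in the 3 GV libraries, although the RPS28 row ranged from 132 to 356 RPKM among them. The changes differed by 2.05 ± 0.28 (SE; limma adjusted p = 0.0041), and the call held under all 18 alternatives.

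The RPS12 copy on chromosome 6 from 62506125 to 62506524 was at 0.974, 0 and 0.233 RPKM in MII and 8.61, 7.41 and 10.4 RPKM in GV, while the RPS12 row did not pass. The changes differed by 2.68 ± 0.50 (SE; limma adjusted p = 0.0101), and the call was lost with 5 RPKM added (0.126). Other tested rows without a coding feature were 2 of RPS15A, at means of 0.27 and 0.385 RPKM in MII and 5.29 and 2.86 RPKM in GV and both lower, another of RPS12 and 1 of RPS2, which did not pass. The first RPS15A row lost its call without MII14c or MII15c.

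**Figure D4:**
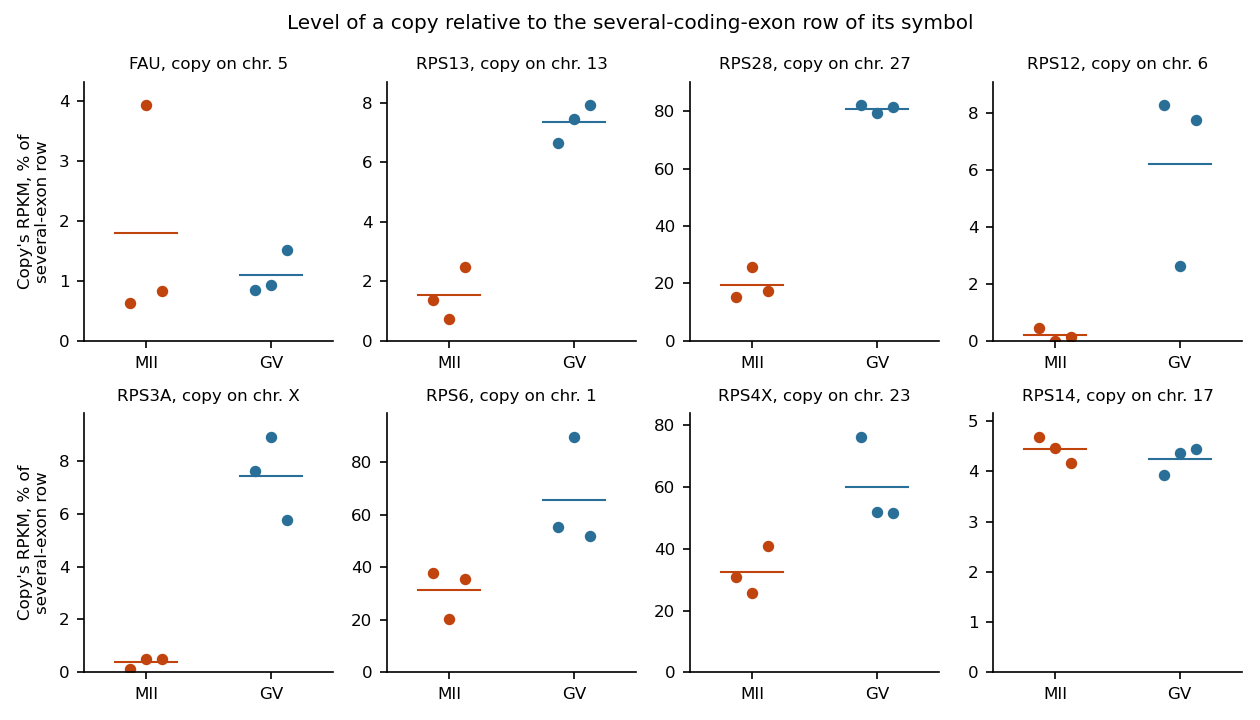
RPKM of a copy as a percentage of the several-exon row of its symbol, 1 point per library, MII left and GV right, with the mean as a line and each vertical axis starting at 0. The MII points of RPS13, RPS28, RPS12, RPS3A, RPS6 and RPS4X lie below their GV points, those of RPS28 at 15.3% to 25.8% against 79.4% to 82.1%, while those of FAU and RPS14 overlap.

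Genes that work with the small subunit moved in both directions. Of the large-subunit symbols, 47 of 51 were tested by their highest row, with 29 lower, 1 higher and a median change of -1.46. The share lower was 61.7%, against 26.9% of all tested genes, whose median change was -0.16. GNB2L1, which encodes the 40S-bound scaffold RACK1, averaged 22.4 ± 10.9 RPKM in MII and 307 ± 93.4 RPKM in GV (SD, n = 3 each; -3.78 ± 0.35, SE; limma adjusted p = 8.79e-05). RPS27A, the other fusion of a ubiquitin unit to a small-subunit protein, was at 775, 773 and 780 RPKM in MII and 574, 989 and 709 RPKM in GV (0.07 ± 0.23, SE) and did not pass. The mean of FAU was 31.6-fold lower in MII than in GV.

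Of 48 factors of small-subunit assembly, 42 were tested, of which 11 were lower, 4 higher and 27 not past. The shares, 26.2% lower and 9.52% higher, were near or below the 26.9% and 13.4% of all tested genes. IMP4, of the early processome, averaged 1.38 ± 0.277 RPKM in MII and 36.8 ± 5.70 RPKM in GV (SD, n = 3 each; -3.98 ± 0.27, SE). EMG1, a methyltransferase of the small-subunit RNA, fell to 4.81 ± 1.22 RPKM in MII, against 67.4 ± 8.47 RPKM in GV (SD, n = 3 each; -3.57 ± 0.26, SE). The 4 that were higher were RIOK3, WDR75, UTP20 and PNO1. RIOK3, a kinase bound to late precursors, averaged 277 ± 53.8 RPKM in MII and 92.5 ± 18.4 RPKM in GV (SD, n = 3 each; 1.58 ± 0.24, SE). PNO1, which holds the platform before the last cleavage, averaged 73.9 ± 21.2 RPKM in MII and 32.7 ± 6.40 RPKM in GV (SD, n = 3 each; 1.13 ± 0.27, SE).

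Of 13 genes that control the translation of ribosomal protein mRNAs, 9 were tested and none passed in limma, against 40.3% of all tested genes. In 2 of them the unadjusted limma p was under 0.05. These were LARP1, which binds the pyrimidine run, and EIF4EBP2, an inhibitor of cap-dependent translation. LARP1 was at 5.14 ± 2.12 RPKM in MII and 10.8 ± 3.66 RPKM in GV (SD, n = 3 each; limma adjusted p = 0.0671). EIF4EBP2 was at 2.48 ± 0.547 RPKM in MII and 1.11 ± 0.596 RPKM in GV (SD, n = 3 each; limma adjusted p = 0.0969). RPS19BP1, which matches the letters of the rule and encodes a nucleolar partner of RPS19, was at 4.95, 0.856 and 3.73 RPKM in MII and 21.8, 32.1 and 4.02 RPKM in GV. It was called lower although MII14c lay above GV15 (-2.06 ± 0.70, SE; limma adjusted p = 0.0414).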

How the data were processed

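The authors deposited RPKM for 20707 genes in 6 columns, per the file headers, and a GFF annotation extended by their transcript discovery, whose start and end coordinates (1-based) and coding features gave the number of coding exons. Coding blocks separated by at most 20 bases were joined. The submitters' processing notes name DESeq, with no version or role, while no aligner, counting tool or genome build is named in the sources used. The labels' protocols give adapter dilutions of 1 in 30 to 1 in 50 for MII and 1 in 10 to 1 in 30 for GV. The 1 in 30 for MII is that of MII14, which has no column. Among columns that match a title, MII14c and MII15 are given 1 in 50, GV14 1 in 30 and GV15 1 in 10. No MII column among these shares a dilution with a GV column, so the part of dilution in the changes was not tested. The labels also call all 6 samples matured in vitro in one field, so stage was taken from the titles.

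Depth was recovered from low RPKM of 3451 genes whose model is coding sequence alone. At the depth found, 100% of the low values used were within 0.1 of a whole read. Amplified reads are not independent molecules, so depth bears on counting error only, and a column may repeat an oocyte.

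Rows averaging at least 1 RPKM were tested in R 4.3.3 with limma 3.58.1 (lmFit, and eBayes with the trend option) after log2(RPKM + 1), with stage alone in the model and Benjamini-Hochberg adjustment over all of them. Pairs of rows were fitted the same way on their difference in each library. RPKM are not counts, so no count model was run. Both fits were tested on simulated data. Per symbol the row with the most coding exons stands for the gene, and tested rows were named with values, except some that are counted but not reported here. Every library's value was given for the 5 largest falls among all tested rows, copies included, and for the rises. The same was done for rows averaging at least 100 RPKM that did not pass, and copies in pairs past the threshold. Other per-library values were added after they were seen. The members, lists and rules were chosen with earlier results of these data known. Alternatives were the pseudocount, the filter, scalings, library weights, the letter c or the number 14 or 15 as a term, and libraries left out.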

Additional observations from a re-analysis of the deposited data

How the results depend on the processing

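Of the 26 rows called, 16 kept their call and direction under every alternative in which they were tested, which was 18, or 17 for 3 low copies of RPS12, RPS16 and RPS15A, and 10 lost it under at least 1, 3 of these only without both untitled columns. No called row changed direction. The cause of these shifts was not tested. Rows lower in MII, 25 as reported, were 20 to 26 with 1 library left out and 16 without both untitled columns, and standing rows, 13 as reported, were 10 to 15, 6 without both and 21 with a term for the letter c. Rows higher, 1 as reported, were 0 with no filter, with no mean-variance trend and without both untitled columns. They were 0 to 1 with 1 library left out, 2 after quantile normalization and 6 with library weights. Of the 8671 tested genes 1162 were higher as reported, 2055 after quantile normalization and 2262 with library weights. With no trend 1102 were higher, without both untitled columns 352, and with 1 library left out 585 to 1338. With no filter 928 of 16023 genes were higher. With the number 14 or 15 as a term (a replicate block on that number) 22 rows were lower and 1 higher. Of all tested genes 2134 were then lower and 1141 higher. What the number marks is not stated.

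Pairs with the copy falling more, 1 as reported, were 2 with 0.1 RPKM added, median-ratio or TPM scaling, library weights and the letter c, 3 with rows of no coding feature as copies, and 0 to 2 with 1 library left out. Pairs the other way, 3 as reported, were 0 with 0.1 RPKM added and with TPM scaling, 5 with 5 RPKM added and with no filter, and 1 at a mean of at least 5 RPKM. The difference of changes turned for the RPS4X copy on chromosome 9 with 0.1 RPKM added (0.23), and with 5 RPKM added for RPS16 (-0.32) and RPS3A (-0.73).

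The rows that turned sign had not passed as reported. RPS14 was at 0.10, 0.11, 0.025, 0.19, 0.021 and 0.025 with median-ratio, quantile and TPM scaling, library weights, the number as a term and without both untitled columns, and its copy at 0.14, 0.32, 0.083, 0.20, 0.075 and 0.14. RPS12 was at 0.038, 0.080, 0.47, 0.028 and 0.075 under these without TPM, and its chromosome 26 copy at 0.19, 0.43, 0.034 and 0.12 under the same without median-ratio and TPM. The chromosome 7 copy of RPS4X was at 0.054, 0.39, 0.0018 and 1.16 under the 3 scalings and weights and at 0.029 with 5 RPKM added, 1.16 being past the threshold (limma adjusted p = 0.018). RPS20 was at 0.019, 0.018 and 0.16 with median-ratio, quantile and weights, RPS29 at 0.018 and 0.013 with median-ratio and quantile, and the RPS27L row at 0.019 with median-ratio scaling. Weights gave 0.37 for the chromosome X copy of RPS23, 0.099 for RPS10 and 0.11 for RPS28. The number as a term gave 0.085 for RPS10. The letter c gave -0.12 for RPSA and -0.92 for the chromosome 11 copy of RPS23.

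Where leaving out 1 library turned the sign, the turned values were 0.12 to 0.12 for RPS14, 0.15 to 0.18 for its copy, 0.24 to 0.28 for RPS12, 0.22 to 0.30 for its chromosome 26 copy, 0.083 to 0.40 for the chromosome 7 copy of RPS4X, -0.14 for RPSA, -0.45, -0.37, -0.15 and -0.13 for the chromosome 11 copy of RPS23 and 0.028 for its copy on chromosome X, 0.11 to 0.36 for RPS10, 0.023 for RPS20, 0.019 for RPS28 and 0.039 for the RPS27L row. The median change of the 46 rows lay -0.93 from that of all tested genes as reported. At the depths found, a row near 1 RPKM on a short model rests on few reads.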

Other observations

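Among the 53 small-subunit rows below a mean of 1 RPKM, 5 had a higher mean in MII and 32 a higher mean in GV, and 16 were at 0 in every library. The highest single value in these rows was 2.61 RPKM. They were not tested.

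The authors' transcript discovery lists, per gene model, reads that support it, pooled over libraries. These figures did not follow the RPKM of copies. The FAU row on chromosome 29 is listed with 5118 reads and its copy on chromosome 5 with 6975, although the copy averaged 0.72 RPKM in MII and 11.8 RPKM in GV, against 34.3 RPKM in MII and 1084 RPKM in GV for the FAU row. The RPS13 row is listed with 401 reads and its chromosome 13 copy with 1027. The RPS4X row on chromosome X is listed with 1334 reads, 1 of them spliced, and the chromosome 23 copy with 6007, 46 of them spliced. Among the 26 tested rows with several coding exons, 4 are listed with no spliced read, and of 65 rows with at most 1 coding exon 6 are listed with a spliced read. How the listing relates to the RPKM is not given in the sources used here.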
